A study of Mus musculus with 9 samples.

Results

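The genes described here encode subunits of the transcription factor NF-kappaB, its inhibitors and 2 subunits of the kinase that releases it, measured in NIH 3T3 cells, a long-established fibroblast line from mouse embryos. They were chosen by gene symbol from a list of 10 genes, namely Nfkb1, Nfkb2, Rela, Relb, Nfkbia, Nfkbib, Nfkbie, Tnfaip3, Ikbkb and Ikbkg. No probe set of the probe table used here carried the name Nfkb1, so 9 genes with 26 probe sets, of 18193 genes in all, were analysed. The 3 groups were cells carrying an shRNA retroviral vector against Ube2m, one against Ube2f, or a control shRNA, each with 3 biological replicates per the labels, and RNA was taken 5 days after transduction. The proteins of Ube2m and Ube2f are E2 enzymes, which hand the ubiquitin-like modifier NEDD8 on to cullin scaffolds. According to the labels, cells of all 9 samples were grown as NIH 3T3 cells expressing Ube2f, which leaves unstated whether an added construct is meant and how many hairpins each target had. Nothing in the labels says whether the replicates came from separate transductions, so p-values measure the spread between these samples only.

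In resting cells NF-kappaB dimers, made from subunits such as RelA, are held in the cytoplasm by inhibitor proteins of the IkappaB family. Signals such as TNF or interleukin-1 activate the IkappaB kinase, which marks the inhibitors for ubiquitination by a cullin-1 ligase whose scaffold carries NEDD8, and their destruction frees the dimers to enter the nucleus. Nfkbia and Tnfaip3 are themselves target genes of NF-kappaB and so form feedback loops that end the response. In fibroblasts the pathway is known for inducing chemokines, cytokines and survival genes. The comparisons below ask how the transcripts of these genes stood when either NEDD8 E2 was targeted. Transcript levels do not report the stability or the location of the proteins.

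The stretch before the start site is shown for Nfkb2, Nfkbia and Tnfaip3, which are known targets of the factor they encode or restrain, and for Rela. Sequences are from RefSeq (GRCm38.p6), cover the 250 bases before an annotated start and are written 5′ to 3′ on the gene's strand. Each match to the kappaB consensus GGGRNWYYCC, on either strand, is in capitals. In it R stands for A or G, Y for C or T, W for A or T and N for any base.
Nfkb2, chr19:46304487-46304736, plus strand: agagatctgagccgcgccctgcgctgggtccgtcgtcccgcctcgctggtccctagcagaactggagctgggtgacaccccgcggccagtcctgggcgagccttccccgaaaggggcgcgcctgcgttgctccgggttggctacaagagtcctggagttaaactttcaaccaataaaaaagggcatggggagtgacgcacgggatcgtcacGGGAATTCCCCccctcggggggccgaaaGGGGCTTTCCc
Nfkbia, chr12:55492648-55492897, minus strand: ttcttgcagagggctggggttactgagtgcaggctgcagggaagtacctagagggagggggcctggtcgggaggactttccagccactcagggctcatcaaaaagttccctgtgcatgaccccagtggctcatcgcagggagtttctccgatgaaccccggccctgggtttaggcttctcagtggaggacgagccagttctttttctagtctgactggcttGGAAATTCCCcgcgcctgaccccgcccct
Tnfaip3, chr10:19015411-19015660, minus strand: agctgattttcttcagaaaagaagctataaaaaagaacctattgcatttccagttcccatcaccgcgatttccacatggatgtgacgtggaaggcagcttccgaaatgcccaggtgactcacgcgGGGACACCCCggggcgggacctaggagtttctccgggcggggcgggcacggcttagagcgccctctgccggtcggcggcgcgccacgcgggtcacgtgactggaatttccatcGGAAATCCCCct
Rela, chr19:5637291-5637540, plus strand: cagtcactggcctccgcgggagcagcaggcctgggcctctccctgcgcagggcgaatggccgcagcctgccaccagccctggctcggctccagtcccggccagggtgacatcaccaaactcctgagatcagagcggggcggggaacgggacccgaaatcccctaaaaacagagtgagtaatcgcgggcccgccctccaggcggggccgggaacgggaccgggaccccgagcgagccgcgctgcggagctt
Of the genes of the list, 7 had 13 such windows in the table used, 3 for Nfkb2, 4 for Ikbkg, 2 for Tnfaip3 and 1 each for Rela, Nfkbia, Nfkbib and Nfkbie. In Nfkbia the match GGAAATTCCC lay 29 to 20 bases before the start. In Tnfaip3 the matches were GGGACACCCC, from base 125 to base 116 before the start, and GGAAATCCCC, from base 12 to base 3. In the Nfkb2 window shown, GGGAATTCCC reads as a match on both strands and overlaps another match by all but 1 base, and GGGGCTTTCC lies 11 to 2 bases before the start. In all, 6 of the 13 windows and 4 of the 7 genes (Nfkb2, Nfkbia, Nfkbie and Tnfaip3) held a match. Of all 32851 windows of this length 3.90% held one, and of all 27025 genes with such windows 4.46%. The 3 Nfkb2 windows each held a match and some of them overlap, so windows are not independent. The other windows, that of Rela among them, held no exact match to this consensus. A match is a description of the sequence only.

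Values are linear signals of a probe set, deposited by the authors after MAS5 processing and scaled so that the trimmed mean of each array is 500. Replicate 3 of each group had a higher median over all probe sets (64 to 73.5) than replicates 1 and 2 (53.3 to 58.5), so values within replicates 1 and 2 and on replicate 3 are given where they bear on a result. On control replicate 1 the 3' probe set of beta-actin was 1.82 times as bright as the 5' one, a ratio that lay between 1.24 and 1.35 everywhere else. Ube2f itself had a signal of 132 ± 13.2 with Ube2f shRNA and 2539 ± 199 with control shRNA (SD, n = 3 each). This is a log2 fold change of -4.11 (SE 0.12, limma adjusted p = 7.45e-10). No probe set with 1 gene carried the name Ube2m, so the reduction of that gene was not checked here. All 10 fibroblast markers listed passed the level below which signals were not tested (53.8), with summed signals of 140609 to 156449, 156951 to 179505 and 142172 to 173864 in the Ube2m, Ube2f and control groups. Of the endothelial markers 0 of 6 passed, with sums of 89.6 to 139.9 over the 9 arrays. Of the macrophage markers 3 of 8 did (Csf1r, Cd14 and Lyz2). The sums of all 8, passing or not, were 897 to 1134, 759 to 808 and 908 to 991 in the same groups. Of 7 epithelial markers 3 passed (Cdh1, Epcam and Krt14). The sums of all 7, passing or not, were 5787 to 6502, 2718 to 4180 and 3239 to 5348. Of the fibroblast markers Thy1 fell with Ube2m shRNA (-0.70, adjusted p = 0.0163) and Pdgfra rose with Ube2f shRNA (0.72, adjusted p = 0.00997) relative to control. With Ube2m relative to Ube2f shRNA Pdgfra (-0.96), Thy1 (-0.67), Pdgfrb (-0.51) and Col6a1 (-0.45) were lower, and the epithelial marker Krt14 (0.98) and the macrophage marker Cd14 (0.52) higher. The Thy1 call against control was lost without Ube2m replicate 1 or 2 (adjusted p up to 0.0757). The calls between Ube2m and Ube2f shRNA, other than that of Pdgfra, were lost after centring of the arrays (adjusted p = 0.0512 to 0.207). The part of these markers in the results below was not tested. Fewer cells carrying a transcript and less of it per cell cannot be told apart in such bulk RNA.

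By limma with Benjamini-Hochberg adjustment over all 10613 genes tested, 0 of the 9 genes passed an adjusted p of 0.05 in any of the 3 comparisons. Between Ube2m and control shRNA 9.71% of all genes passed, between Ube2f and control shRNA 5.19%, and between Ube2m and Ube2f shRNA 15.8%. Of the 1031 genes called with Ube2m shRNA 381 were higher and 650 lower, against 124 and 401 when each array was centred on its median. With Ube2f shRNA 237 were higher and 314 lower, and 50 and 172 after that centring. At an unadjusted p under 0.05 there were 3 of the 9 genes between Ube2m and control shRNA (Nfkb2, Rela and Nfkbia), where 24.8% of all genes lay under that level. There were 0 of 9 between Ube2f and control shRNA (20.2% of all genes), and 2 of 9 between Ube2m and Ube2f shRNA, Nfkbia and Tnfaip3 (28.7% of all genes). The median log2 fold change of the 9 genes was -0.088, -0.078 and -0.055 in these comparisons, beside -0.038, 0.011 and -0.044 over all genes tested. The comparisons with control share the control arrays, so their values are not independent of each other.

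**Figure D1:**
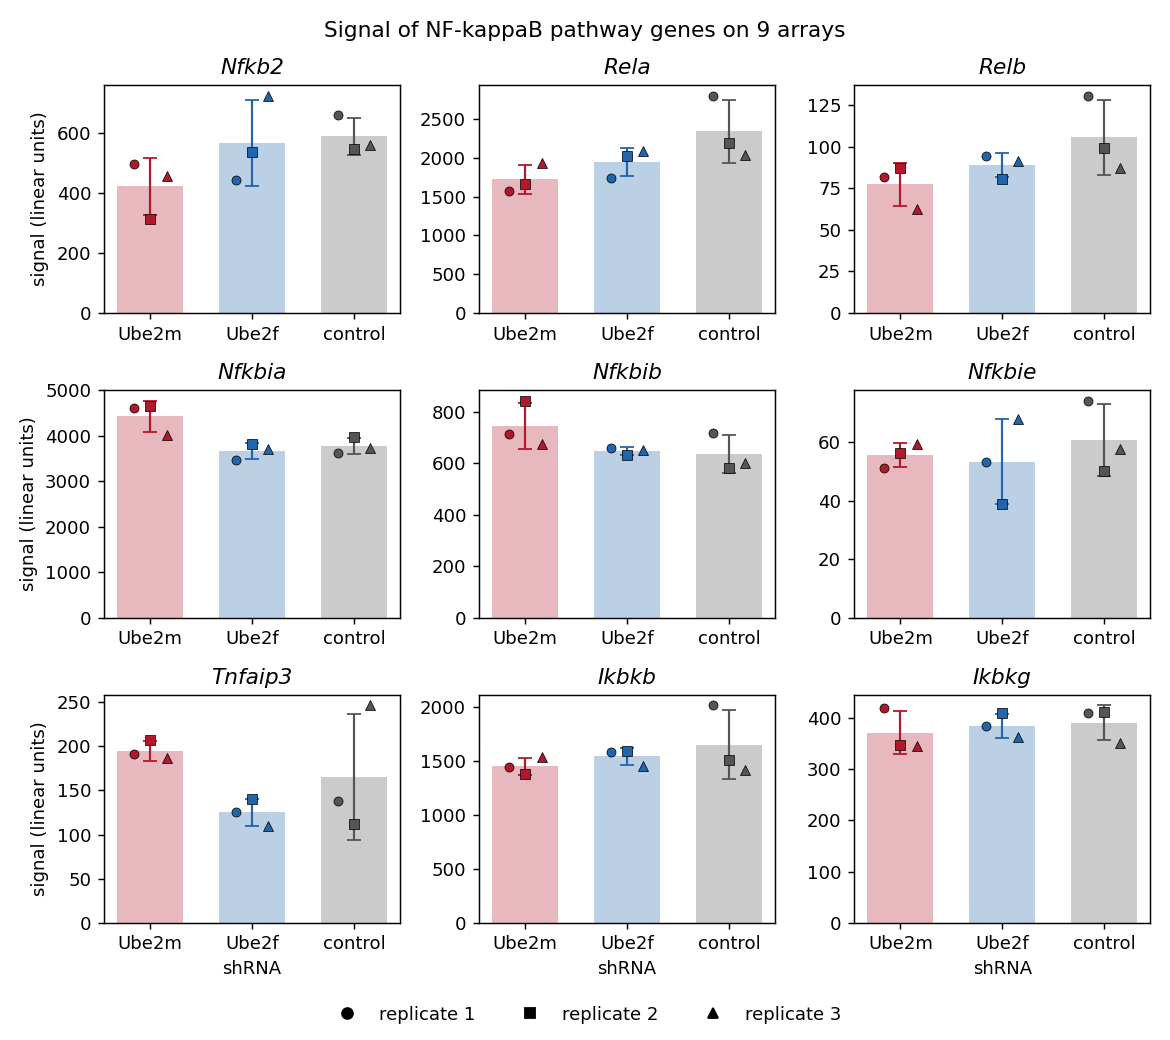
Linear signal of the main probe set of each gene (vertical axes, starting at 0, with a scale of their own per gene) for cells with Ube2m, Ube2f or control shRNA. Bars are means of 3 arrays, error bars are SD, and circles, squares and triangles are the arrays of replicates 1, 2 and 3. Rela lies between 1575 and 1933 with Ube2m shRNA and between 2038 and 2800 with control shRNA. For Relb, Nfkbie, Ikbkb and Ikbkg each group overlaps with each other group.

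Rela encodes the subunit that carries the main transactivating activity of NF-kappaB. Its signal was 1575, 1658 and 1933 on the Ube2m shRNA arrays, 1745, 2017 and 2085 on the Ube2f shRNA arrays, and 2800, 2188 and 2038 on the control arrays. All 3 Ube2m arrays lay below all 3 control arrays, whereas the Ube2f arrays overlapped both other groups. The log2 fold change between Ube2m and control shRNA was -0.43 (SE 0.14, 95% interval -0.73 to -0.14), with an adjusted p of 0.0657 that missed the threshold. Within replicates 1 and 2 the difference was -0.61 and passed (adjusted p = 0.00793), while on the replicate 3 arrays it was -0.076. With replicate 3 as a term in the model it also passed (-0.43, adjusted p = 0.026), as it did without control replicate 3 (-0.52, adjusted p = 0.0389). Without control replicate 1, the array with the high beta-actin ratio and the highest Rela signal, it was -0.30 (adjusted p = 0.223). Between Ube2f and control shRNA the Rela difference was -0.25 (95% interval -0.55 to 0.041, adjusted p = 0.327), or -0.12 without control replicate 1, and between Ube2m and Ube2f shRNA it was -0.18 (95% interval -0.47 to 0.12, adjusted p = 0.433).

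Nfkb2 encodes the precursor of the subunit that pairs with RelB in the alternative branch of the pathway. Its main probe set read 495, 315 and 456 with Ube2m shRNA, 443, 535 and 724 with Ube2f shRNA, and 660, 546 and 560 with control shRNA. The Ube2m arrays again lay below all control arrays, and the Ube2f arrays spread over the range of both. The log2 fold change was -0.49 between Ube2m and control shRNA (SE 0.20, 95% interval -0.92 to -0.057, adjusted p = 0.148). It was -0.076 between Ube2f and control shRNA (adjusted p = 0.88) and -0.41 between Ube2m and Ube2f shRNA (adjusted p = 0.194). Without Ube2m replicate 2 the first was -0.30 (adjusted p = 0.46) and the last -0.22 (adjusted p = 0.567), and without Ube2f replicate 3 the last was also -0.22. Between Ube2f and control shRNA the Nfkb2 value was -0.29 within replicates 1 and 2 and 0.36 on replicate 3. Both Nfkb2 probe sets, the main one included, carry a suffix that marks probes that may match several transcripts. The other Nfkb2 probe set gave another order. It read 290, 259 and 259.1 with Ube2m shRNA, 137, 189 and 267 with Ube2f shRNA, and 358, 355 and 398 with control shRNA. On this probe set both targeted groups lay below all control arrays, with log2 differences of -0.44 for Ube2m and -0.90 for Ube2f shRNA, which were not tested on their own. With both probe sets averaged, the Nfkb2 log2 fold change was -0.46 with Ube2m shRNA (adjusted p = 0.182) and -0.49 with Ube2f shRNA (adjusted p = 0.206), so the Ube2f value depended on the probe set.

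Relb, which encodes the usual partner of the Nfkb2 product, was dim. Its signal was 81.8, 87.4 and 62.8 with Ube2m shRNA, 94.4, 80.9 and 91.5 with Ube2f shRNA, and 131, 99.5 and 87.1 with control shRNA. The highest value was that of control replicate 1, and the groups overlapped. The log2 fold change of Relb was -0.38 between Ube2m and control shRNA (95% interval -0.88 to 0.13, adjusted p = 0.35) and -0.20 between Ube2f and control shRNA (95% interval -0.71 to 0.31, adjusted p = 0.689). Between Ube2m and Ube2f shRNA it was -0.18 (95% interval -0.68 to 0.33), and -0.059 without Ube2m replicate 3. Without control replicate 1 the Relb differences from control were -0.24 with Ube2m shRNA (adjusted p = 0.67) and -0.059 with Ube2f shRNA (adjusted p = 0.947), and without control replicate 3 the Ube2f one was -0.31. Control replicate 1 was the highest of the control arrays for 6 of the 9 genes, which was the case for 40.1% of all genes tested.

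**Figure D2:**
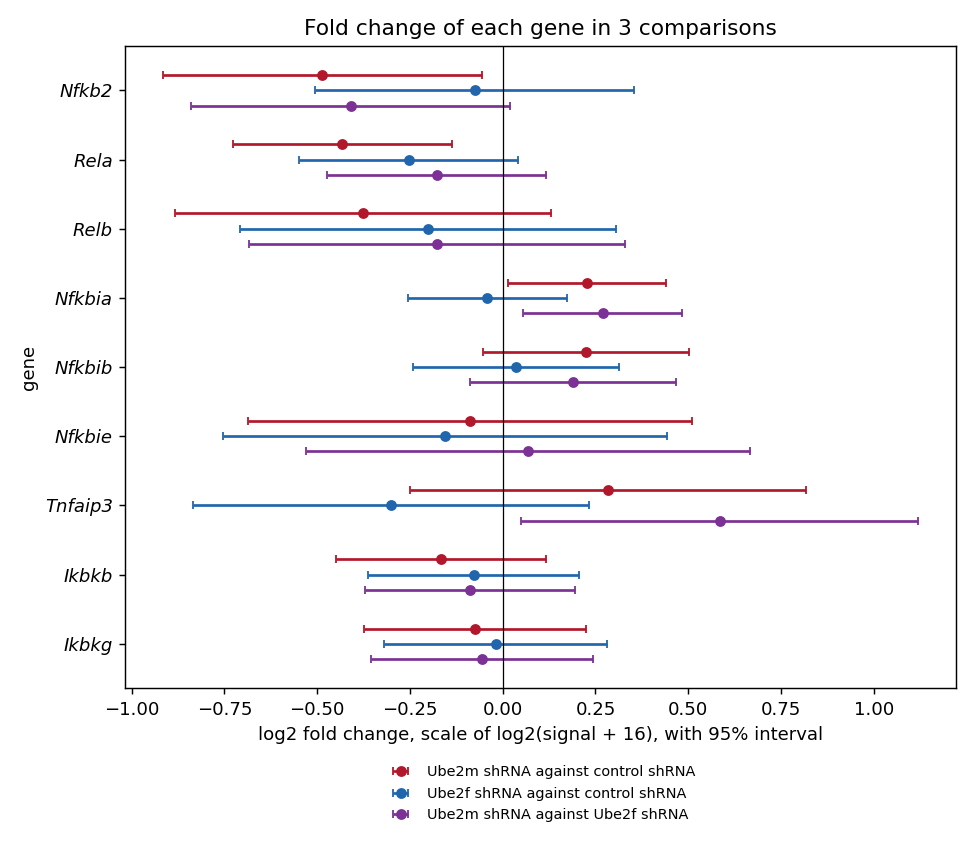
Log2 fold change of the main probe set of each gene (horizontal axis, on the scale of log2(signal + 16)) in the 3 comparisons named in the legend. Points are estimates from the limma fit over 9 arrays and bars are 95% intervals. The intervals of Rela and Nfkb2 lie below 0 and that of Nfkbia above 0 for Ube2m against control shRNA, and none of the intervals for Ube2f against control shRNA leaves out 0, before any adjustment for the number of genes.

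Nfkbia encodes the IkappaB protein that binds RelA dimers and is rebuilt after each round of signalling. Its main probe set read 4594, 4645 and 4019 on the Ube2m shRNA arrays, 3462, 3810 and 3707 on the Ube2f shRNA arrays, and 3612, 3968 and 3723 on the control arrays. Every Ube2m array lay above every array of the other groups, by a small margin for replicate 3, and the Ube2f and control arrays overlapped. The log2 fold change between Ube2m and control shRNA was 0.23 (SE 0.099, 95% interval 0.013 to 0.44, adjusted p = 0.176), or 1.17-fold. It was 0.29 within replicates 1 and 2 and 0.11 on replicate 3, and 0.14 after centring of the arrays (adjusted p = 0.748). Between Ube2m and Ube2f shRNA it was 0.27 (95% interval 0.055 to 0.48, adjusted p = 0.0874). Within replicates 1 and 2 the Nfkbia difference between Ube2m and Ube2f shRNA passed (0.35, adjusted p = 0.0239), with 0.12 on the replicate 3 arrays. With replicate 3 as a term in the model it passed too (adjusted p = 0.0269). Between Ube2f and control shRNA the estimate was -0.042 (95% interval -0.26 to 0.17, adjusted p = 0.866).

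The other 4 probe sets of Nfkbia followed the main one in part. One of them read 3509, 3652 and 3295 with Ube2m shRNA, 2905, 3039 and 3264 with Ube2f shRNA, and 3044, 2769 and 2887 with control shRNA. Another read 1132, 1117 and 1151 with Ube2m shRNA, 819, 1022 and 939 with Ube2f shRNA, and 1013, 934 and 1060 with control shRNA. On both of these the Ube2m arrays lay above all others, with log2 differences from control of 0.26 and 0.18. On the remaining Nfkbia probe sets the Ube2m and control groups overlapped, with log2 differences of 0.089 and 0.085. Between Ube2f and control shRNA the log2 differences of these other 4 probe sets were, in the same order, 0.081, -0.12, -0.15 and -0.26. Only on the last did the Ube2f arrays (112.5, 144 and 164.3) lie below all control arrays (167.9, 165.8 and 174.1). These differences were not tested on their own. With all 5 averaged, the value was 0.17 between Ube2m and control shRNA (adjusted p = 0.412) and 0.27 between Ube2m and Ube2f shRNA (adjusted p = 0.141).

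Nfkbib and Nfkbie encode the other classical IkappaB proteins. Nfkbib read 714, 843 and 675 with Ube2m shRNA, 659.9, 632 and 652 with Ube2f shRNA, and 719, 584 and 601 with control shRNA. The Ube2m arrays lay above the Ube2f arrays but overlapped with control replicate 1. The log2 fold change of Nfkbib was 0.22 between Ube2m and control shRNA (95% interval -0.054 to 0.50, adjusted p = 0.308), 0.035 between Ube2f and control shRNA (95% interval -0.24 to 0.31, adjusted p = 0.917) and 0.19 between Ube2m and Ube2f shRNA (adjusted p = 0.371). Without Ube2m replicate 2 the Nfkbib values with Ube2m shRNA were 0.13 against control (adjusted p = 0.682) and 0.098 against Ube2f shRNA (adjusted p = 0.748), and after centring the value against control was 0.14. Its other probe set read 0.9 to 45.2 over the 9 arrays and was under the level for testing. Nfkbie was only just above that level, with a mean log2 value of 6.17 against 6.12. Its signal was 51.2 to 59.3 with Ube2m shRNA, 38.9 to 67.8 with Ube2f shRNA and 50.2 to 74.1 with control shRNA, and all groups overlapped. The 95% intervals of its log2 fold change were -0.69 to 0.51 for Ube2m against control shRNA and -0.75 to 0.44 for Ube2f against control shRNA, the widest of the 9 genes.

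Tnfaip3 encodes a ubiquitin-editing enzyme that ends signalling to the IkappaB kinase. Its signal was 191, 208 and 186 with Ube2m shRNA, 125, 141 and 109 with Ube2f shRNA, and 138, 113 and 247 with control shRNA. The Ube2m arrays lay above the Ube2f arrays without overlap, while control replicate 3 alone was above every array of both targeted groups. Between Ube2m and Ube2f shRNA the log2 fold change was 0.58 (SE 0.25, 95% interval 0.050 to 1.12, adjusted p = 0.137), with 0.53 within replicates 1 and 2 and 0.69 on replicate 3. Between Ube2m and control shRNA it was 0.28 (95% interval -0.25 to 0.82, adjusted p = 0.526), with 0.61 within replicates 1 and 2 and -0.38 on replicate 3. Between Ube2f and control shRNA it was -0.30 (95% interval -0.83 to 0.23, adjusted p = 0.547). Both Tnfaip3 differences from control turned on control replicate 3, without which they were 0.58 with Ube2m shRNA (adjusted p = 0.105) and 8.2e-05 with Ube2f shRNA. The other Tnfaip3 probe set was under the level for testing, with 31.3 to 49.2, 8.7 to 76.7 and 45.4 to 122.6 in the Ube2m, Ube2f and control groups.

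Ikbkb and Ikbkg encode the catalytic beta subunit of the IkappaB kinase and its regulatory subunit. Ikbkb read 1378 to 1535 with Ube2m shRNA, 1454 to 1593 with Ube2f shRNA, and 2017, 1511 and 1422 with control shRNA. Apart from the high control replicate 1, the arrays of the 3 groups covered one range. For Ikbkb the log2 fold change was -0.17 between Ube2m and control shRNA (95% interval -0.45 to 0.12, adjusted p = 0.481) and -0.078 between Ube2f and control shRNA (95% interval -0.36 to 0.21, adjusted p = 0.8). Without control replicate 1 these were -0.014 and 0.074. Ikbkg read 345 to 420 with Ube2m shRNA, 363 to 409 with Ube2f shRNA and 352 to 412 with control shRNA, and the groups overlapped throughout. For Ikbkg the estimate was -0.075 on the log2 scale between Ube2m and control shRNA (95% interval -0.37 to 0.23) and -0.019 between Ube2f and control shRNA (95% interval -0.32 to 0.28). Between Ube2m and Ube2f shRNA the values of the kinase genes were -0.088 for Ikbkb (95% interval -0.37 to 0.20) and -0.055 for Ikbkg (95% interval -0.36 to 0.24). The other 5 probe sets of Ikbkg had log2 differences of -0.29 to 0.26 from control with Ube2m shRNA and -0.45 to 0.063 with Ube2f shRNA. Another Ikbkb probe set with clear signal read 492 to 536 with Ube2m shRNA, 475 to 556 with Ube2f shRNA and 525 to 636 with control shRNA. The remaining Ikbkb probe sets were dim and scattered, one of them with 5, 179 and 84.4 on the control arrays.

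**Figure D3:**
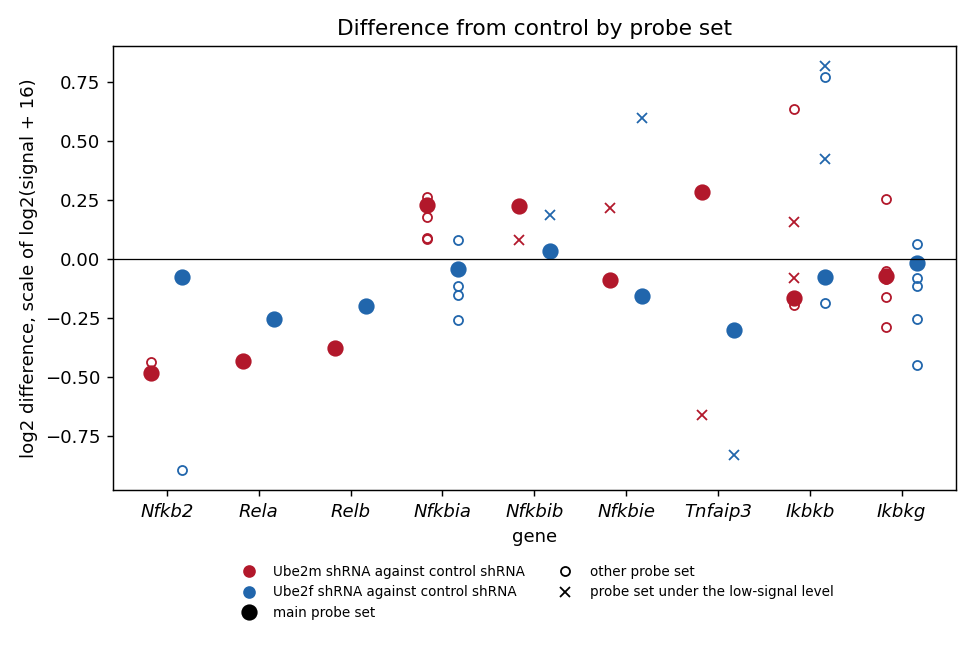
Log2 difference from control (vertical axis, scale of log2(signal + 16)) for each of the 26 probe sets, by gene, with Ube2m shRNA in red and Ube2f shRNA in blue. Large filled points are the main probe sets, open points the others, and crosses probe sets under the level for testing. The 5 probe sets of Nfkbia lie above 0 with Ube2m shRNA, whereas those of Ikbkb scatter on both sides.

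Where groups did not overlap, the share was set against all genes. Between Ube2m and control shRNA the arrays did not overlap for 3 of the 9 genes, as for 29.7% of all genes tested. They were lower for Rela and Nfkb2 (2 of 9, against 18% of all genes) and higher for Nfkbia (1 of 9, against 11.6%). Between Ube2f and control shRNA this was the case for 0 of 9 genes, against 23.2% of all genes. Between Ube2m and Ube2f shRNA it held for 3 of the 9 genes, Nfkbia, Nfkbib and Tnfaip3, which were higher with Ube2m shRNA, against 34.4% of all genes in either direction and 13.7% with Ube2m higher. The main probe set of Nfkbie overlapped in that comparison (0.068, adjusted p = 0.909), and its other probe set, under the level for testing, was lower with Ube2m than with Ube2f shRNA without overlap (-0.38). Of the 12 other probe sets above the level for testing, 10 had the sign of the main probe set of their gene between Ube2m and control shRNA, 9 between Ube2f and control shRNA and 7 between Ube2m and Ube2f shRNA.

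Among the other genes of the pathway, listed by role, 6 rose and 10 fell with Ube2m shRNA relative to control, of 106 tested (15.1%, where 9.71% of all genes passed). With Ube2f shRNA 3 rose and 1 fell (3.77%, where 5.19% of all genes passed), and between Ube2m and Ube2f shRNA 8 were higher and 10 lower (17%, where 15.8% passed). The median log2 fold change of these genes was -0.030, 0.028 and -0.058. The lists were chosen with earlier results of these data known, so these shares are a description and no test of the pathway as a set. Genes named below passed in at least 1 comparison, except Rel and Fbxw11, which were chosen after their values were seen. Among the ligands 1 of 2 tested rose with Ube2m shRNA and 0 fell. With Ube2f shRNA 0 of these 2 passed, but their median log2 fold change from control was 0.61 in each targeted group. Between Ube2m and Ube2f shRNA their median was -0.00082 and 0 passed. Il18, a cytokine gene, averaged 559.8 ± 11.9 with Ube2m shRNA and 369 ± 51.9 with control shRNA (SD, n = 3 each, log2 fold change 0.59, adjusted p = 0.0238). Its call was lost after centring of the arrays (adjusted p = 0.0951) and without any Ube2m array or control replicate 1 (0.49 to 0.69, adjusted p up to 0.0895).

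Of the other Rel and IkappaB family genes 1 of 4 tested rose with Ube2m shRNA and 0 fell (9.71% of all genes passed). This was Nfkbiz, which encodes a nuclear IkappaB protein induced by interleukin-1, with 978, 732 and 799.5 on the Ube2m arrays against 495, 523 and 635 on the control arrays (log2 fold change 0.59, SE 0.16, adjusted p = 0.0421). With Ube2f shRNA Nfkbiz read 984, 664 and 844, a difference from control of 0.57 that missed the threshold (adjusted p = 0.0687). Both targeted groups lay above all control arrays for Nfkbiz, and they differed from each other by 0.018 (adjusted p = 0.961). The Nfkbiz call was lost when any of the 3 Ube2m arrays or control replicate 1 or 2 was left out, with log2 fold changes of 0.47 to 0.69 and adjusted p up to 0.175 over all arrays left out in turn. It was also lost after centring of the arrays (0.50, adjusted p = 0.162), without the filter on low signals (adjusted p = 0.0666) and with probe sets averaged (adjusted p = 0.0935). Rel, which encodes another transactivating subunit, had log2 fold changes of -0.054 with Ube2m and -0.39 with Ube2f shRNA, and neither passed.

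Of the upstream kinases 1 of 11 tested rose with Ube2m shRNA and 0 fell, where 9.71% of all genes passed. Irak2, a kinase-like gene of interleukin-1 and Toll-like receptor signalling, read 582, 589 and 712 with Ube2m shRNA, 358, 355 and 439 with Ube2f shRNA, and 300, 288 and 198 with control shRNA. The 3 groups did not overlap at all. The log2 fold change of Irak2 was 1.23 between Ube2m and control shRNA (SE 0.17, adjusted p = 0.00105) and 0.69 between Ube2m and Ube2f shRNA (SE 0.17, adjusted p = 0.0171). The call between Ube2m and Ube2f shRNA was lost without Ube2m replicate 3, Ube2f replicate 1 or Ube2f replicate 2 (0.59 to 0.78, adjusted p up to 0.0692, over all arrays left out in turn). Between Ube2f and control shRNA it was 0.54 (adjusted p = 0.0955).

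Of 22 receptors and adaptors 0 rose and 2 fell with Ube2m shRNA, both of them adaptors, where 9.71% of all genes passed. Tirap, which links Toll-like receptors to their signalling complex, read 1030, 1057 and 1028 with Ube2m shRNA, 1445, 1272 and 1501 with Ube2f shRNA, and 1401, 1524 and 1539 with control shRNA. Tirap had a log2 fold change of -0.51 between Ube2m and control shRNA (SE 0.10, adjusted p = 0.0105), but -0.22 with its probe sets averaged (adjusted p = 0.428). Fadd, a death receptor adaptor, averaged 356 ± 52.9 with Ube2m shRNA and 541 ± 25.7 with control shRNA (SD, n = 3 each). Fadd had a log2 fold change of -0.59 (adjusted p = 0.0169), with -0.50 without Ube2m replicate 2 (adjusted p = 0.0869) and -0.50 with probe sets averaged (adjusted p = 0.0623). Between Ube2m and Ube2f shRNA 2 genes of this list were higher and 2 lower, where 15.8% of all genes passed. The lower ones were Tirap (-0.50 to -0.38 with arrays left out in turn, adjusted p up to 0.0665) and Fadd (-0.64 to -0.44, adjusted p up to 0.0879). Their calls were lost after centring (adjusted p = 0.0959 and 0.0821) and with probe sets averaged (0.402 and 0.0821). Tlr4, the receptor for bacterial lipopolysaccharide, read 899.9, 916 and 1332 with Ube2m shRNA, 439.6, 419 and 592 with Ube2f shRNA and 632, 710 and 845 with control shRNA. It was higher with Ube2m than with Ube2f shRNA by a log2 value of 1.09 (SE 0.18, adjusted p = 0.00162), and did not pass against control with Ube2m shRNA (0.50, adjusted p = 0.105) or Ube2f shRNA (-0.58, adjusted p = 0.0878). Cd14, its coreceptor and also one of the macrophage markers above, was higher with Ube2m than with Ube2f shRNA by 0.52 (adjusted p = 0.0294), a call lost after centring (adjusted p = 0.207), without the filter (0.0584), and without Ube2m replicate 1 or 2 or any Ube2f array (adjusted p up to 0.121).

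Of 12 genes of the ligase that ubiquitinates IkappaB, 0 rose and 1 fell with Ube2m shRNA, where 9.71% of all genes passed. Btrc, which encodes an F-box protein that recognises phosphorylated IkappaB, read 314, 332 and 325 with Ube2m shRNA, 442, 535 and 592 with Ube2f shRNA and 509.9, 473 and 436 with control shRNA. The Ube2m arrays lay below all others for Btrc. Its log2 fold change was -0.52 between Ube2m and control shRNA (SE 0.14, adjusted p = 0.0343) and -0.66 between Ube2m and Ube2f shRNA (adjusted p = 0.00716). With probe sets averaged these Btrc values were -0.42 (adjusted p = 0.268) and -0.47 (adjusted p = 0.173). Without the probe sets that may match several transcripts they were -0.44 (adjusted p = 0.312) and -0.28 (adjusted p = 0.531). The call against control was also lost after centring of the arrays (-0.61, adjusted p = 0.0556), without the filter (adjusted p = 0.0661), and without any of the Ube2m arrays or control replicate 1 or 2 (-0.58 to -0.47, adjusted p up to 0.119). Fbxw11, its close relative, had log2 fold changes of 0.27 with Ube2m shRNA (adjusted p = 0.222) and 0.27 with Ube2f shRNA (adjusted p = 0.263). Of the 24 ubiquitin regulators 0 rose and 1 fell with Ube2m shRNA, where 9.71% of all genes passed. Itch, which encodes a ubiquitin ligase that works with Tnfaip3, averaged 522 ± 63.3 with Ube2m shRNA and 754 ± 115 with control shRNA (SD, n = 3 each, log2 fold change -0.51, adjusted p = 0.037). Its value was -0.12 with probe sets averaged (adjusted p = 0.85), and the call was lost when any array was left out other than control replicate 3 and Ube2f replicate 3 (-0.59 to -0.39, adjusted p up to 0.16). With Ube2m relative to Ube2f shRNA 0 of these regulators were higher and 1 lower, where 15.8% of all genes passed. This was Cyld, which encodes a deubiquitinase that restrains the pathway (-0.36, adjusted p = 0.0492). The Cyld call was lost after centring (adjusted p = 0.216), quantile normalization (0.0615) or averaging of probe sets (0.212), without the filter (0.0646), within replicates 1 and 2 (0.126), with less specific probe sets left out (0.0526), and without any Ube2m array, Ube2f replicate 1 or 3 or control replicate 1 (-0.42 to -0.30, adjusted p up to 0.174).

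**Figure D4:**
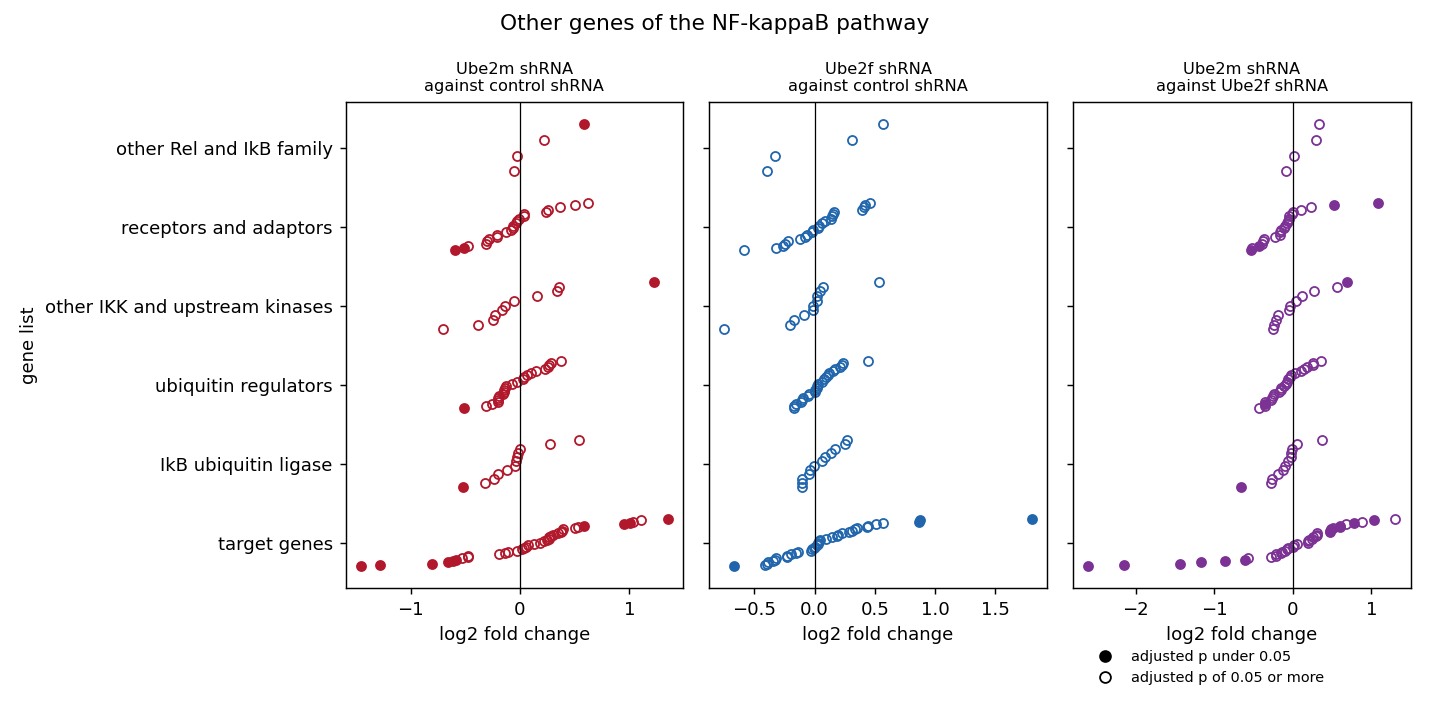
Log2 fold change (horizontal axes) of the tested genes of 6 lists of the NF-kappaB pathway in the 3 comparisons, 1 panel each with a scale of its own. Filled points have an adjusted p under 0.05 and open points do not. The lists were chosen with earlier results of these data known. Relative to control 10 of the 37 target genes are filled with Ube2m shRNA, on both sides of 0, where 9.71% of all genes passed. With Ube2f shRNA 4 are filled, where 5.19% of all genes passed.

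Known target genes of NF-kappaB, a list also chosen with earlier results of these data known, numbered 37 tested of 60 listed. With Ube2m shRNA 4 rose and 6 fell relative to control, where 9.71% of all genes passed. With Ube2f shRNA 3 rose and 1 fell, where 5.19% of all genes passed. For Ube2m against Ube2f shRNA 5 were higher and 6 lower, where 15.8% of all genes passed. The 5 higher were Tapbp (0.78 on the log2 scale), Ier3 (1.04) and, named after their values were seen like Bcl2l1 below, Cxcl5 (0.61), Gadd45b (0.47) and Myc (0.48). The 6 lower were Ccl7, Cxcl12, Ccl2 (-1.17), Ptx3 (-1.44), Csf1 (-0.86, adjusted p = 0.00576) and Ccnd1 (-0.61). The Csf1 call held with any array left out, and that of Ptx3 was lost with probe sets averaged (adjusted p = 0.069). The Myc call was lost after centring (adjusted p = 0.115), quantile normalization (0.0544) or averaging of probe sets (0.0617), without the filter (0.0679), and without any targeted array or control replicate 2 (adjusted p up to 0.129). That of Gadd45b was lost after centring (adjusted p = 0.181) and without replicate 1 or 2 of either targeted group (adjusted p up to 0.117). That of Cxcl5 was lost without Ube2m replicate 2 or 3 or Ube2f replicate 2 (adjusted p up to 0.0744), and that of Ier3 without Ube2f replicate 1 (adjusted p = 0.0503). The list shares 7 genes with the others, Nfkbiz among them, counting the cell markers and the NF-kappaB genes described above as lists. Shared genes were kept in the 37 and in the median. The median log2 fold change of the list was 0.18, 0.032 and 0.19 in the 3 comparisons. Tapbp, which helps load peptides on major histocompatibility complex class I, read 2429, 2659 and 2567 with Ube2m shRNA and 1465, 1202 and 1139 with control shRNA (log2 fold change 1.01, SE 0.11, adjusted p = 0.00022). Ier3, an early response gene linked to survival, read 3552, 3373 and 3628 with Ube2m shRNA, against 909.5, 1159 and 2414 with control shRNA (1.35, SE 0.25, adjusted p = 0.00662). With arrays left out in turn the Ier3 value was 1.06 to 1.76 and passed each time.

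Ccl7 and Cxcl12, which encode chemokines, stood on opposite sides of control in the targeted groups. Ccl7 read 618, 623 and 449 with Ube2m shRNA, 3818, 3879 and 2827 with Ube2f shRNA, and 939, 1126 and 901 with control shRNA. Its log2 fold change was -0.80 with Ube2m shRNA (SE 0.16, adjusted p = 0.00941, and 0.0588 after centring of the arrays) and 1.80 with Ube2f shRNA (adjusted p = 6.82e-05). Cxcl12 read 359, 417 and 428 with Ube2m shRNA, 1725, 1672 and 2092 with Ube2f shRNA, and 1152, 1094 and 776 with control shRNA. Its log2 fold change was -1.28 with Ube2m shRNA (adjusted p = 0.000448) and 0.86 with Ube2f shRNA (adjusted p = 0.00787). With its probe sets averaged Cxcl12 had -0.65 (adjusted p = 0.0964) and 0.47 (adjusted p = 0.286), and neither passed. Between Ube2m and Ube2f shRNA the differences were -2.61 for Ccl7 (adjusted p = 1.56e-06) and -2.14 for Cxcl12 (adjusted p = 3.62e-06). Ptx3, Ccnd1, Ccl2 and Bcl2l1 also fell with Ube2m shRNA, by 0.58 to 1.46 on the log2 scale, and Fas rose by 0.95. The Fas call was lost after centring of the arrays (adjusted p = 0.092) and without Ube2m replicate 1 or 2 or control replicate 1 or 2 (adjusted p up to 0.103). That of Ccnd1 was lost with probe sets averaged (-0.29, adjusted p = 0.201) and without Ube2m replicate 1 or 2 or control replicate 1 (adjusted p up to 0.0812), and that of Ptx3 with probe sets averaged (adjusted p = 0.0721). Of the others, Bcl2l1 had a value of 0.13 with probe sets averaged and lost its call without Ube2m replicate 1 or 2, Ube2f replicate 1 or control replicate 1 (adjusted p up to 0.131), and the Ccl2 call was lost without Ube2m replicate 1, Ube2m replicate 3 or control replicate 3 (-0.77 to -0.49, adjusted p up to 0.0931). With Ube2f shRNA Psmb9 also rose (0.88, adjusted p = 0.0287) and Gadd45b fell (-0.67, adjusted p = 0.0123). The Psmb9 call was lost after centring (adjusted p = 0.115) or quantile normalization (0.0939), without the filter (0.0898), with only the 2 groups fitted (0.0586), and without Ube2f replicate 1 or 2 or control replicate 2 or 3 (adjusted p up to 0.153). That of Gadd45b was lost without Ube2f replicate 2 (adjusted p = 0.0513) and after centring of the arrays (adjusted p = 0.0671).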

How the data were processed

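The deposited values are linear intensity signals of 45101 probe sets on 9 1-colour arrays, made by the authors with MAS5, per the submitters' processing notes. The MAS5 version and settings were not stated there. Each array's mean signal without the top and bottom 2% of probe sets was 500. Arrays carry no read depth, and precision is limited by there being 3 per group. Labelling started from 6 ug of total RNA, per the labels.

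Signals were taken as log2(signal + 16), on which fold changes understate those of dim genes. Probe sets with 1 gene name (34945) were kept, 34884 of them with a symbol in the reference. Left out were 64 controls, 932 with several genes and 9160 without a name. The main probe set of a gene had the highest mean log2 value. Genes were tested where this mean was at least 6.12 (a signal of 53.8), the median over probe sets without the control ones, leaving 10613. Group means were fitted on all 9 arrays by limma 3.58.1 in R 4.3.3 (eBayes with intensity trend), with Benjamini-Hochberg adjustment over all genes, two-sided, at 0.05. The fit was tested on simulated data with independent errors and no shift between replicates, so that test does not cover such a shift. The 95% intervals come from the same fit and are not adjusted. Named are all the listed genes, and genes of the pathway lists past the threshold (at most 8 per list and comparison). The genes and lists were chosen with earlier results of these data known. No other gene is named for a like pattern, since that rule held for listed genes past the threshold and there were 0. Alternatives were another constant, no filter, centred or quantile-normalized arrays, averaged or selected probe sets, other terms for replicates, and arrays left out.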

Additional observations from a re-analysis of the deposited data

How the results depend on the processing

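The counts of genes past the threshold for Ube2m against control, Ube2f against control and Ube2m against Ube2f shRNA were 1031, 551 and 1672. Centring gave 525, 222 and 868, and averaged probe sets 607, 271 and 1109. Replicate 3 as a term gave 2118, 1461 and 2714. Replicates 1 and 2 alone gave 1747 and 1121 for the comparisons with control, and fitting only the 2 groups gave 350 for Ube2f. Leaving out arrays in turn gave 388 to 1177, 195 to 583 and 1017 to 1813. Those past 1.5 times were without Ube2m replicate 1 (443), Ube2m replicate 2 (388) or control replicate 1 (472) in the first comparison, and without Ube2f replicate 1 (195), Ube2f replicate 2 (342) or control replicate 1 (281) in the second, and without Ube2m replicate 1 (1063), Ube2m replicate 2 (1017) or Ube2f replicate 1 (1018) in the third, with fewer arrays in the fit. Same-numbered arrays of different groups had correlations of their deviations of -0.0046 to 0.56, and differently numbered ones of -0.39 to 0.28. The replicate 3 arrays correlated with each other at 0.32, 0.35 and 0.56. With replicates 1 and 2 of other groups they correlated at -0.39 to -0.063. The main fit used no term for the replicate numbers. The replicate block gave 1866, 1225 and 2493 genes.

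Of the NF-kappaB genes 0 passed in the main analysis. With the replicate block, with replicate 3 as a term, and in replicates 1 and 2 alone, 1 passed against control with Ube2m shRNA (Rela, adjusted p = 0.0366 with the block) and 1 between Ube2m and Ube2f shRNA (Nfkbia, 0.0359 with the block). With arrays left out, 0 to 1 passed in the first comparison and 0 in the others. The cause was not tested. With averaged probe sets the sign turned for Tnfaip3 (-0.19) and Ikbkb (0.070) with Ube2m shRNA, for Ikbkb (0.35) with Ube2f shRNA, for Nfkb2 (0.025) and Ikbkg (0.075) between Ube2m and Ube2f shRNA, and for the target gene Bcl2l1 (0.13) with Ube2m shRNA. With Ube2f shRNA Nfkbib turned to -0.029 after centring, and in replicates 1 and 2 alone Nfkbib turned to -0.0046 and Tnfaip3 to 0.083. With arrays left out, estimates crossed 0 with Ube2f shRNA for Nfkb2 (-0.26 to 0.083), Nfkbib (-0.021 to 0.13), Nfkbie (-0.30 to 0.0011), Tnfaip3 (-0.52 to 8.2e-05), Ikbkb (-0.18 to 0.074) and Ikbkg (-0.090 to 0.022). Nfkbie did so with Ube2m shRNA (-0.19 to 0.034) and between Ube2m and Ube2f shRNA (-0.089 to 0.22). Nfkb2, Rela, Nfkbib and Nfkbie could not be tested without _s_at, _x_at and _a_at probe sets. Signals near the level for testing limit Nfkbie and Relb.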
